A study of Mus musculus with 6 samples.

Results

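The clusters of miR-143 with miR-145 and of miR-199 with miR-214 are groups of miRNAs known from the wall cells of blood vessels (smooth muscle cells and pericytes, together called mural cells) and from fibroblasts. Their members were chosen by name, 10 mature miRNAs in all, and 9 of the 10 are among the 1364 rows of the deposited miRNA count table. The data came from small RNA sequencing of the nucleus accumbens (NAc), a brain region of reward learning, in male C57BL/6N mice aged 7 to 8 weeks. All mice went through conditioned place preference (CPP) training, in which an injection is paired with a compartment. The saline group (3 libraries) received saline in both kinds of session, and the morphine group (3 libraries) received 10 mg/kg morphine i.p. in one daily session and saline in the other, on each of 6 days. NAc tissue was collected 0.5 h after the CPP test. According to the labels, 6 mice stand behind the 3 libraries of a group, whereas a legend of the study speaks of 1 mouse per library, so the p-values measure the spread between these libraries. The tissue was taken whole, without separation of core and shell or of cell types.

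Mature miRNAs are cut from a hairpin precursor, which can give a miRNA from each of its arms, named 5p and 3p. One arm usually becomes the guide strand that represses target mRNAs, while the passenger arm is mostly degraded. miR-143 and miR-145 are made from neighbouring hairpins and are best known as regulators of the contractile state of smooth muscle cells. miR-199a and miR-214 are known from mesenchymal cells and fibroblasts, where they are made from the non-coding RNA Dnm3os. In brain tissue such cells are a minority, found around vessels and in the meninges.

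The mature sequences of the group of miR-199 and miR-214 are shown because they set what the counts can tell apart. Sequences were read from the RefSeq table (GRCm38.p6), which was matched for 4 of the 9 miRNAs counted here, and the capitals mark the seed, bases 2 to 8, which pairs with target mRNAs.
mmu-miR-199a-3p: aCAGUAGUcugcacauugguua
mmu-miR-199b-3p: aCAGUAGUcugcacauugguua
mmu-miR-199a-5p: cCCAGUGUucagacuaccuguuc
mmu-miR-214-3p: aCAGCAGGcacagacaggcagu
mmu-miR-214-5p: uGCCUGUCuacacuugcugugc
miR-199a-3p and miR-199b-3p are identical over all 22 bases, so reads of the one cannot be told from reads of the other. mmu-miR-199b-3p has no row of its own in the table used here, and the row of miR-199a-3p may hold reads from all 3 hairpins. These are Mir199a-2 on chromosome 1, Mir199b on chromosome 2 and Mir199a-1 on chromosome 9. miR-199a-5p comes from Mir199a-1 and Mir199a-2. Its seed was compared only with miRNAs outside the 10 members that had a sequence used here, and none shared it. The same holds for miR-214-5p. miR-199b-5p, for which no sequence was used, was not compared with miR-199a-5p. The seed of miR-214-3p is shared with miR-761, which was not analysed here.

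Mir199a-2 and Mir214 lie on the same strand of chromosome 1, 5444 bp apart, and are shown as the hairpins of 1 host transcript, with both mature arms in capitals.
Mir199a-2: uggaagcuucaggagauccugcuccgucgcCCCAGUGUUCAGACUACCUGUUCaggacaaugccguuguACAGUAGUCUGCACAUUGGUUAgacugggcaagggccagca
Mir214: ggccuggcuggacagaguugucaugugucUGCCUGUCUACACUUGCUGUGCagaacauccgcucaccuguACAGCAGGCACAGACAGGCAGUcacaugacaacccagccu
In the GENCODE vM21 annotation of GRCm38, Mir199a-2 spans chr1:162217814-162217923 and Mir214 spans chr1:162223368-162223477, both on the plus strand. Both overlap an exon of Dnm3os on the same strand, and both lie in an intron of Dnm3 on the opposite strand. Mir199b (chr2:32318460-32318569, plus strand) lies opposite an intron of Dnm1, and Mir199a-1 (chr9:21496495-21496564, minus strand) lies opposite an intron of Dnm2. The hairpins of this group therefore sit within the 3 dynamin genes, always on the other strand.

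The members took between 0.515% and 1.52% of the counts of a library, and nearly all of these counts were miR-143-3p. The total count was between 4183333 (saline replicate 1) and 9842050 (morphine replicate 1), and 3 counts correspond to a level of 0.305 to 0.717 CPM (counts scaled to a common library size of 1e6 counts). This limit covers counting error only. mmu-miR-143-3p made up 94.4% to 98.6% of the counts of the 9 miRNAs and ranked between 14 and 29 among all miRNAs of a library. On the scale of mean CPM after TMM scaling (trimmed mean of M-values, which corrects for differences in composition between libraries), the order in the saline group was miR-143-3p (11448), miR-145a-5p (298), miR-199a-3p (15.4), miR-145a-3p (15.3), miR-199a-5p (7.07), miR-143-5p (3.10), miR-214-3p (1.26), miR-199b-5p (0.805) and miR-214-5p (0.544). The step from miR-143-3p to miR-145a-5p and the step from miR-145a-5p to miR-199a-3p were larger than the spread between the libraries. From miR-199a-3p downwards, neighbours in this order overlapped in their libraries. The last 3 miRNAs had at most 13 counts in any saline library, so their levels rest on few reads.

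Of the 9 miRNAs, 2 were higher in the morphine group by the criteria of the study (unadjusted p no higher than 0.05 and a change of 0.58 or more on the log2 scale), and none was lower. These were miR-199a-3p and miR-143-5p. Over all 1364 miRNAs tested, 19.4% met these criteria, 9.68% as higher and 9.68% as lower in the morphine group, so that 2 of 9 is near what the whole table gives. After Benjamini-Hochberg adjustment across the whole table, edgeR's quasi-likelihood test left 0 of the 9 with an adjusted p under 0.05, while 5.21% of all miRNAs did. At an unadjusted p under 0.05 there were 2, and at an adjusted p under 0.05 DESeq2 gave 1 (miR-199a-3p) and edgeR's exact test 0. Over all miRNAs tested, DESeq2 gave 156 of 1334 and edgeR's exact test 71 of 1364 at that level. The log2 fold change was above 0 for 7 of the 9 miRNAs, with a median of 1.07, against a median of -0.15 over all miRNAs tested. In bulk tissue, a change in the number of cells of a type and a change of a miRNA per cell cannot be told apart. The groups did not overlap for 1 of the 9 miRNAs, miR-199a-3p, against 22.1% of all miRNAs.

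**Figure D1:**
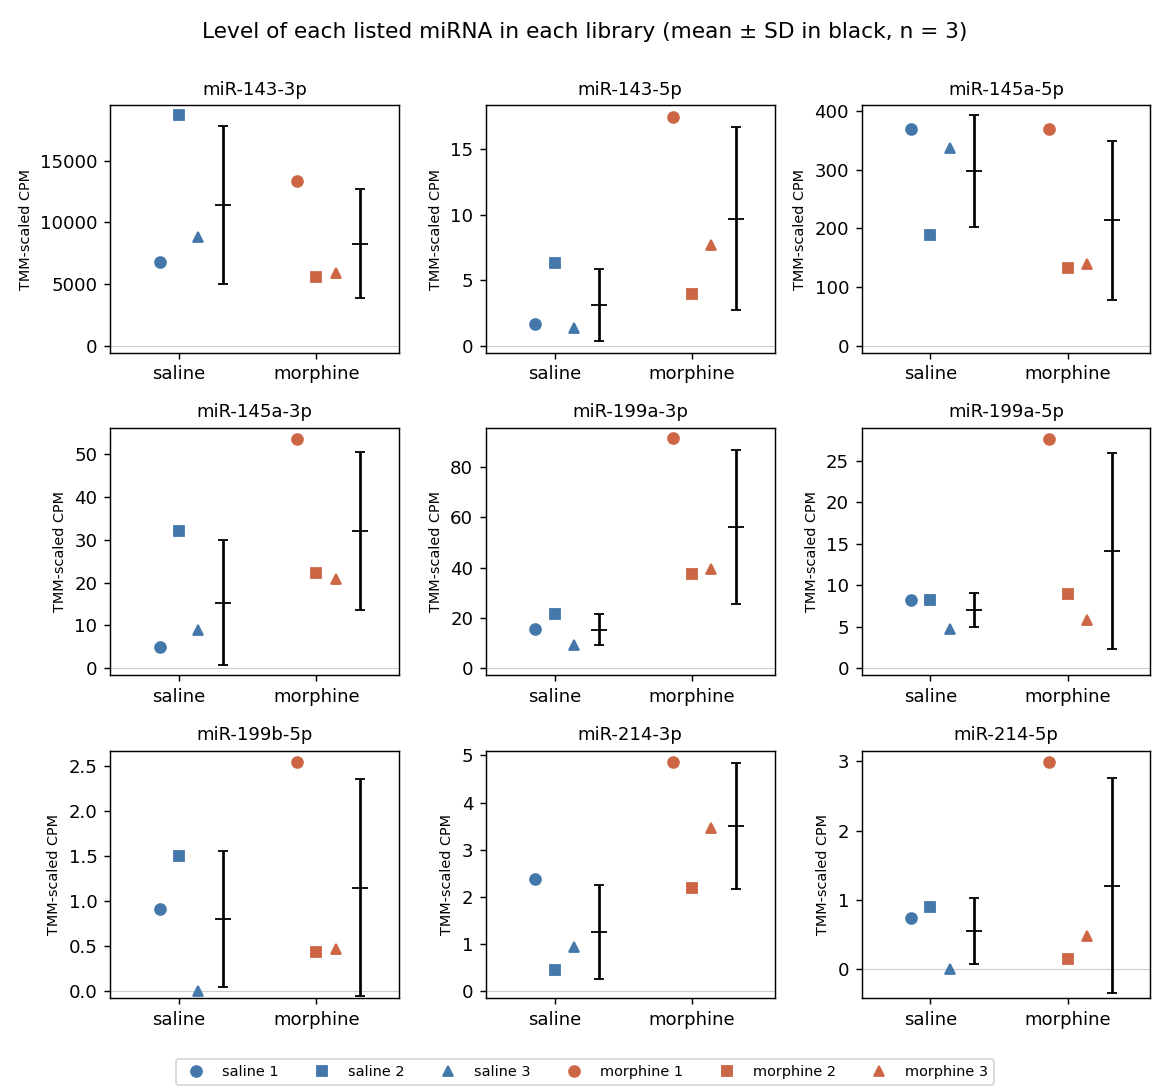
TMM-scaled CPM of each of the 9 listed miRNAs (1 panel each, linear axis) in the 3 saline libraries (blue) and the 3 morphine libraries (orange), with the mean ± SD of each group in black. miR-199a-3p is the only panel in which all morphine libraries lie above all saline libraries, and morphine replicate 1 (circle) is the highest morphine library in every panel.

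miR-199a-3p, the most abundant member of the group of miR-199 and miR-214, had 15.6, 21.4 and 9.23 CPM in saline replicates 1, 2 and 3. It had 91.2, 37.4 and 39.6 CPM in morphine replicates 1, 2 and 3. Every morphine library was above every saline library, and morphine replicate 1 stood above the other two. Mean levels were 15.4 ± 6.11 CPM (SD, n = 3) with saline and 56.0 ± 30.4 CPM (SD, n = 3) with morphine. The log2 fold change was 1.86 (SE 0.55), with an unadjusted p of 0.00323 and an adjusted p of 0.0507 by edgeR's quasi-likelihood test. Its call by the criteria of the study was kept in all 17 alternative settings, in which the adjusted p ranged from 1.82e-07 to 0.3185. The lowest came without saline replicate 2 and the highest without morphine replicate 1, where the log2 fold change was 1.42 (SE 0.56).

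The other arm of the same hairpins, mmu-miR-199a-5p, had 8.24, 8.25 and 4.72 CPM in the saline libraries and 27.7, 8.94 and 5.81 CPM in the morphine libraries. Only morphine replicate 1 stood clear of the saline libraries, and morphine replicate 3 was below saline replicates 1 and 2. The log2 fold change was 1.01 (SE 0.63, adjusted p = 0.443 by edgeR's quasi-likelihood test), and without morphine replicate 1 it was 0.18 (SE 0.63). miR-199b-5p, the 5p arm of Mir199b, was counted 5, 10 and 0 times in the saline libraries and 23, 3 and 3 times in the morphine libraries. The groups overlapped, and the sign of its log2 fold change depended on morphine replicate 1, with 0.59 (SE 1.07) with all libraries and -0.66 (SE 1.46) without it.

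mmu-miR-214-3p, which is cut from the Dnm3os hairpin next to Mir199a-2, was counted 13, 3 and 9 times in the saline libraries, against 44, 15 and 22 times in the morphine libraries. In CPM these were 2.38, 0.450 and 0.944 against 4.87, 2.20 and 3.45, and the groups overlapped at saline replicate 1. The log2 fold change was 1.50 (SE 0.75, adjusted p = 0.287 by edgeR's quasi-likelihood test). It was 2.36 (SE 0.84) and met the criteria of the study once saline replicate 1 was left out. The passenger arm, miR-214-5p, had 4, 6 and 0 counts against 27, 1 and 3. Its 27 counts in morphine replicate 1 gave the positive sign of the log2 fold change of 1.23 (SE 1.15), which was -0.66 (SE 1.58) without that library.

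The hairpins of the other cluster, Mir143 and Mir145a, lie 1301 bp apart on the minus strand of mouse chromosome 18, at chr18:61649196-61649258 and chr18:61647825-61647894 of GRCm38. They overlap no other gene of the GENCODE vM21 annotation. The nearest part of Carmn, a long non-coding RNA gene on the same strand that is known as a host of this cluster, begins 366 bp from Mir143.

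The guide arm mmu-miR-143-3p, the smooth muscle regulator that is the most abundant of the 9, had 6766, 18746 and 8831 CPM in the saline libraries. It had 13358.5, 5577 and 5900 CPM in the morphine libraries. Morphine replicates 2 and 3 lay below every saline library, and the groups overlapped through morphine replicate 1 alone, which like saline replicate 2 was far above the other libraries of its group. The means were 11448 ± 6404 CPM (SD, n = 3) and 8278 ± 4402 CPM (SD, n = 3), and the log2 fold change was -0.47 (SE 0.51, adjusted p = 0.584 by edgeR's quasi-likelihood test). This difference was smaller than the spread between replicates, and without saline replicate 2 its sign turned, to 0.09 (SE 0.23).

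mmu-miR-145a-5p, the guide arm of the neighbouring hairpin, had 368, 190 and 336 CPM in the saline libraries and 369, 132 and 140 CPM in the morphine libraries. Here saline replicate 2, the highest library for miR-143-3p, was the lowest of its group. The means were 298 ± 95.2 CPM (SD, n = 3) and 213.8 ± 135 CPM (SD, n = 3), and the log2 fold change was -0.48 (SE 0.51, adjusted p = 0.584 by edgeR's quasi-likelihood test). It was -0.72 (SE 0.27) with saline replicate 2 left out, which met the criteria of the study as lower in the morphine group.

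The passenger arms of this cluster had higher means in the morphine group. mmu-miR-143-5p had 1.65, 6.30 and 1.36 CPM in the saline libraries and 17.5, 3.96 and 7.69 CPM in the morphine libraries. Morphine replicate 2 lay below saline replicate 2, so the groups overlapped. By edgeR's quasi-likelihood test, the log2 fold change was 1.65 (SE 0.71), with an unadjusted p of 0.0325 and an adjusted p of 0.206. The call rested on morphine replicate 1, without which the log2 fold change was 1.01 (SE 0.84, unadjusted p = 0.2536 by edgeR's quasi-likelihood test), and on saline replicate 3, without which it was 1.35 (SE 0.73). It was lost in 8 of 17 alternative settings. mmu-miR-145a-3p had 4.94, 31.9 and 9.02 CPM against 53.3, 22.1 and 20.7 CPM, with saline replicate 2 above 2 of the 3 morphine libraries. Its change of 1.07 on the log2 scale (SE 0.64) did not meet the criteria, and without saline replicate 2 it was 2.18 (SE 0.39) and did.

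**Figure D2:**
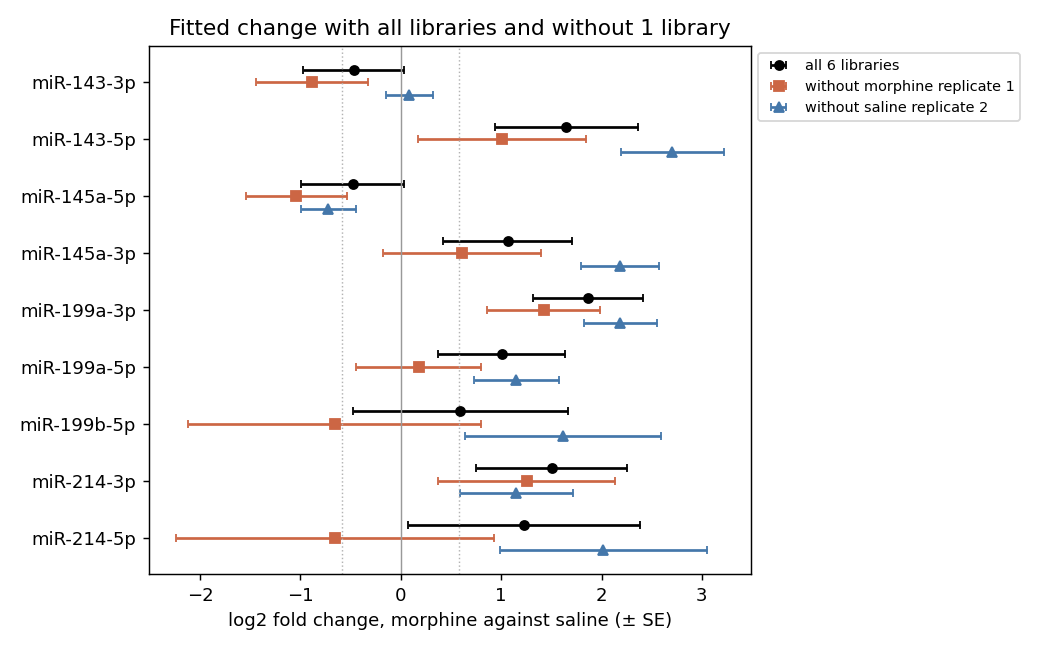
Fitted log2 fold change of morphine against saline (x axis, bars ± SE) for the 9 miRNAs with all 6 libraries (black circles), without morphine replicate 1 (orange squares) and without saline replicate 2 (blue triangles). Dotted lines mark the threshold of 0.58 in either direction. Without morphine replicate 1 miR-199b-5p and miR-214-5p change sign to below 0, where miR-143-3p and miR-145a-5p also lie with all libraries, and miR-143-3p crosses 0 without saline replicate 2.

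The count of called members depended on single libraries. Without saline replicate 2, 7 of the 9 met the criteria of the study, 6 as higher and 1 (miR-145a-5p) as lower, and 5 had an adjusted p under 0.05 by edgeR's quasi-likelihood test. That setting raised the share of all miRNAs meeting the criteria to 37.0%. In it, 386 of the 1328 miRNAs tested had an adjusted p under 0.05 by the same test. Without saline replicate 3 or without morphine replicate 1, 1 of the 9 met the criteria, miR-199a-3p, against 16.4% and 13.3% of all miRNAs. Without morphine replicate 1 the median log2 fold change of the 9 was 0.18, and 5 of them were above 0. Scaling by library totals gave the same 2 calls, both higher, while it moved the median log2 fold change of all miRNAs from -0.15 to -0.40 and that of the 9 from 1.07 to 0.98. Over all miRNAs, the calls were then 104 higher and 194 lower, and 112 higher and 185 lower with upper quartile scaling, in place of 132 and 132.

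Morphine replicate 1 was above the mean of the other 2 morphine libraries for all 9 miRNAs. On the log2 CPM scale the excess was 0.80 (miR-214-3p) to 3.17 (miR-214-5p), with a median of 1.44, and it was 1.22 for miR-143-3p and 1.24 for miR-199a-3p. Over the 899 miRNAs that reached 10 counts in sum, 54.8% were above that mean, with a median excess of 0.08. In this library both arms of both clusters were thus high together. Among the morphine libraries, this one also had the highest summed level of 5 of the 7 other lists. The smooth muscle, fibroblast and matrix list summed to 26711 CPM against 18727 and 19647, the erythroid list to 719 CPM against 501 and 495, and the endothelial list to 16264 CPM against 14523 and 10984. The oligodendrocyte list summed to 1963 CPM against 1572 and 1950, and the list of choroid plexus and ciliated epithelium to 1179 CPM against 1021 and 1043. The remaining 2 lists did not follow. The neuronal list was lowest in this library, at 77326 CPM against 90426 and 116401, and the myeloid and microglial list summed to 1040 CPM against 858 and 1072. The part of vessel or meningeal tissue in the NAc samples was not tested.

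Saline replicate 2 was likewise above the mean of the other 2 saline libraries for 7 of the 9 miRNAs, the exceptions being miR-145a-5p and miR-214-3p. The excess had a median of 1.28 on the log2 CPM scale over the 9 miRNAs, against 0.10 over the 899 miRNAs. Unlike in morphine replicate 1, the members did not move as 1 block, with values between -1.60 (miR-214-3p) and 2.60 (miR-199b-5p). In this library the smooth muscle, fibroblast and matrix list summed to 45323 CPM against 18510 and 19671 in saline replicates 1 and 3, of which miR-21a-5p alone gave 20448 CPM. The endothelial list summed to 5002 CPM against 1633 and 1485, and the erythroid list to 264 CPM against 554 and 453. The part of these differences in the members' values was not tested. In saline replicate 3, 1 of the 9 was above the mean of its group's other libraries.

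**Figure D3:**
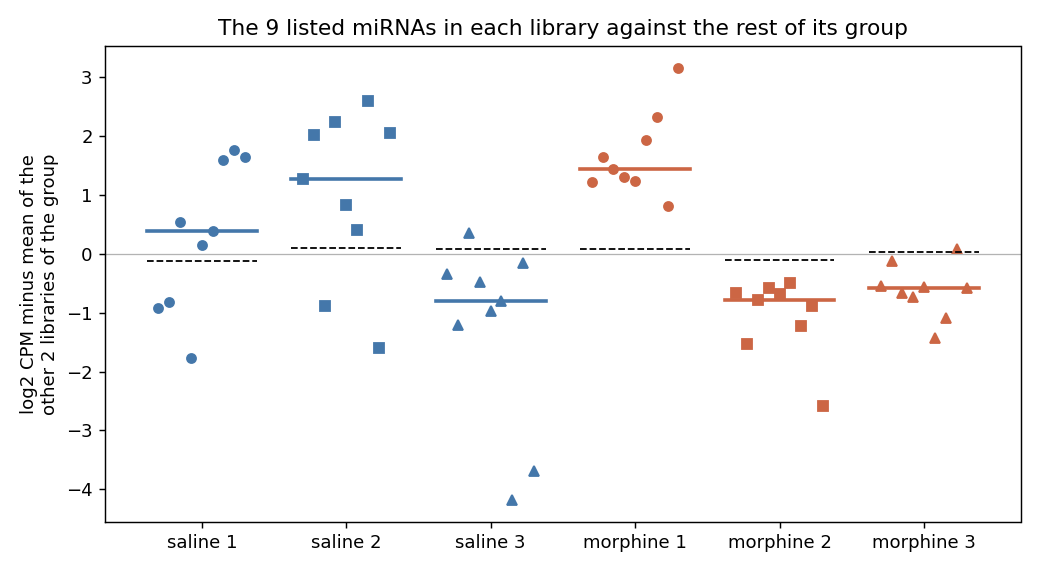
Log2 CPM of each of the 9 miRNAs in a library minus the mean of the other 2 libraries of its group (y axis), for each library (x axis), with the median of the 9 as a coloured line and the median of 899 miRNAs as a dashed line. All 9 points of morphine replicate 1 lie above 0, between 0.80 and 3.17.

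The arms of a hairpin were then compared within each library, since their ratio does not depend on scaling. Hairpin names with both arms listed and a mean of at least 10 counts in each arm (161 in all) were tested with limma, and 3 of the 5 hairpin names of the 2 clusters reached this minimum. The ratio of miR-143-3p to miR-143-5p, the guide to the passenger, was 11.93, 11.52 and 12.61 on the log2 scale in the saline libraries, against 9.57, 10.43 and 9.57 in those of the morphine group. The groups did not overlap, which held for 46.0% of the 161 hairpins. The mean fell by 2.16 (SE 0.43, adjusted p = 0.0176 by limma over the 161 hairpins) and was 12.02 ± 0.55 (SD, n = 3) against 9.86 ± 0.50 (SD, n = 3). The passenger arm had only 9, 42 and 13 counts in the saline libraries, against 158, 27 and 49 in the morphine libraries. With a minimum mean of 50 counts in each arm, miR-143 was not among the hairpins tested. The background was 21.1% of the 161 hairpins (34) at an adjusted p under 0.05, and leaving out 1 library gave from 4 called hairpins (without morphine replicate 2) to 98 (without saline replicate 2). The adjusted p of miR-143 rose above 0.05 when any library except saline replicate 2 was left out, to between 0.05202 and 0.09075, with differences from -2.45 to -1.87.

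For miR-199a, the log2 ratio of the 3p to the 5p arm was 0.91, 1.37 and 0.96 in the saline libraries, against 1.72, 2.05 and 2.75 in those of the morphine group. The 3p counts may include reads from Mir199b, so this may not be a ratio of the arms of miR-199a alone. All morphine libraries were above all saline libraries, as the groups were apart in either direction for 46.0% of the 161 hairpins, and the difference was 1.09 (SE 0.44, adjusted p = 0.118 by limma). In miR-145a, where the 5p arm is the guide, the log2 ratio was -6.19, -2.57 and -5.21 in the saline libraries, against -2.79, -2.58 and -2.75 in those of the morphine group. Saline replicate 2 lay among the morphine libraries, and the difference of 1.95 (SE 0.91, adjusted p = 0.156 by limma) did not pass the threshold. Without saline replicate 2 the differences of miR-145a and miR-199a were 2.998 (SE 0.34) and 1.24 (SE 0.38), with adjusted p of 0.00102 and 0.0326 by limma, where 98 of 162 hairpins were called.

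The leading miRNAs of the 2 clusters were then compared with each other within libraries. There were 434.9 counts of miR-143-3p for each count of miR-199a-3p in saline replicate 1, 874 in saline replicate 2 and 957 in saline replicate 3. In morphine replicates 1, 2 and 3 there were 146.5, 149.3 and 149.1. The morphine libraries were all lower and lay close together, although morphine replicate 1 had more than the other two of both miRNAs. The mean log2 ratio was lower by 2.27 in the morphine group (log2 difference of -2.27), at 9.48 ± 0.62 (SD, n = 3) against 7.21 ± 0.01 (SD, n = 3). The exact two-sided permutation test gave p = 0.1, the smallest that 3 libraries against 3 allow, and 0.2 after adjustment over the 4 ratios compared. Leaving out 1 library at a time gave log2 differences from -2.62 to -2.06.

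Within each cluster, the ratios of the groups overlapped. miR-143-3p outnumbered miR-145a-5p 18.4, 98.8 and 26.3 times in the saline libraries and 36.2, 42.1 and 42.3 times in the morphine libraries (log2 difference 0.14, exact permutation test, p = 1). miR-199a-3p outnumbered miR-214-3p 6.54, 47.7 and 9.78 times in the saline libraries and 18.7, 17.0 and 11.5 times in the morphine libraries (log2 difference 0.09, exact permutation test, p = 0.9). In both ratios the saline libraries spread widely around the morphine libraries, with SDs of 1.28 and 1.52 on the log2 scale against 0.13 and 0.38. The value of miR-199a-3p to miR-214-3p in saline replicate 2 rests on 3 counts of miR-214-3p.

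**Figure D4:**
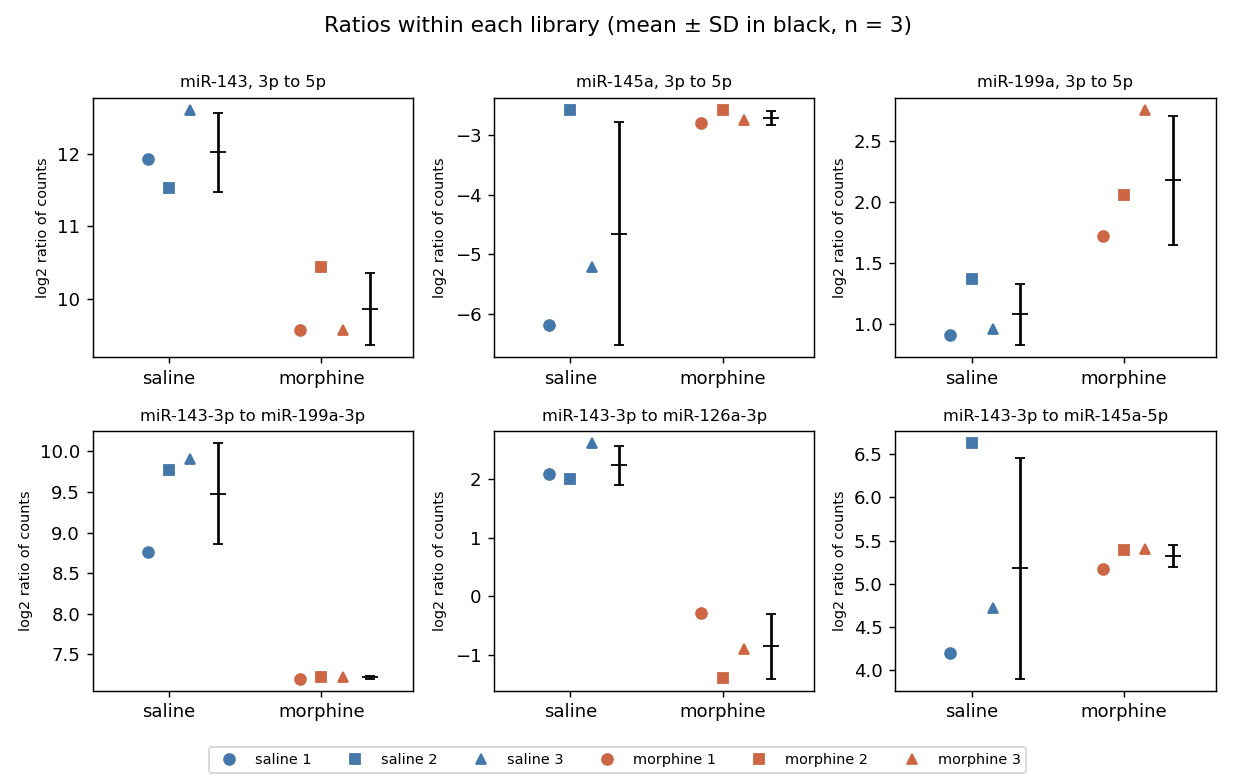
Log2 ratios of counts within each library (y axis) for the 3p and 5p arms of miR-143, miR-145a and miR-199a (upper panels) and for miR-143-3p against miR-199a-3p, miR-126a-3p and miR-145a-5p (lower panels), with mean ± SD in black. The counts of miR-199a-3p may include reads from Mir199b. The saline and morphine libraries do not overlap for the arms of miR-143 and miR-199a (46.0% of the 161 hairpins tested have no overlap) or for the ratios to miR-199a-3p and miR-126a-3p. The levels of miR-199a-3p and miR-126a-3p themselves have no overlap, like those of 22.1% of all miRNAs.

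miR-126a-3p, a miRNA of endothelial cells, was the closest comparison from another vessel cell type. It had 1610, 4685 and 1454 CPM in the saline libraries and 16168, 14482 and 10932 CPM in the morphine libraries, and the log2 difference between groups was 2.42 (SE 0.50, adjusted p = 0.00818 by edgeR's quasi-likelihood test). Its groups did not overlap, as held for 22.1% of all miRNAs, whereas those of miR-143-3p overlapped. The ratio of miR-143-3p to miR-126a-3p was 4.20, 4.001 and 6.07 in the saline libraries, against 0.826, 0.385 and 0.540 in those of the morphine group. The log2 difference was -3.07 (exact permutation test, p = 0.1, adjusted 0.2). The other arm, miR-126a-5p, had a log2 fold change of -0.96 (SE 0.71) and did not pass the test.

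Of 23 other miRNAs known from smooth muscle, fibroblasts or extracellular matrix control, 2 were higher and 3 lower in the morphine group by the criteria of the study, 18 did not pass, and 0 had an adjusted p under 0.05 by edgeR's quasi-likelihood test. Their median log2 fold change was -0.01. miR-455-5p rose with a log2 fold change of 2.09 (SE 0.61), from 12.3, 67.3 and 10.2 CPM to 163, 104 and 114 CPM. Its other arm, miR-455-3p, had a log2 fold change of 0.15 (SE 0.58) and did not meet the criteria. miR-152-3p rose with a log2 fold change of 1.50 (SE 0.58), from 30.2, 126 and 30.1 CPM to 285, 111 and 133 CPM. Its groups overlapped. miR-221-3p, which is known to act on smooth muscle growth, fell by 1.16 on the log2 scale (SE 0.44), from 3037, 2067 and 3169 CPM to 1324, 1111 and 1263 CPM. miR-21a-5p, known from fibrosis, fell by 1.45 (SE 0.61), with 20448 CPM in saline replicate 2 alone and between 2507 and 4225 CPM in the other libraries. The fifth, miR-21a-3p, named after its values were seen, was counted 2, 5 and 1 times in the saline libraries and 0 times in each morphine library.

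Lists of other cell types were counted in the same way. These lists are short, and 19.4% of all miRNAs met the criteria. In the erythroid list 1 of 5 was higher (miR-451a). The log2 fold changes of the other 4 were below 0, between -1.31 (miR-144-3p) and -0.20 (miR-486a-5p), and none passed. In the myeloid and microglial list 1 of 5 was higher (miR-146a-5p). The other 4 did not pass and went both ways, from -0.67 (miR-142a-5p) to 0.89 (miR-155-5p). In the neuronal list 2 of 7 were lower (miR-124-3p and miR-129-5p). The other 5 did not pass and went both ways, from -0.32 (miR-138-5p) to 0.67 (miR-212-3p). In the oligodendrocyte list 1 of 3 was lower (miR-219a-5p). Its groups overlapped, with 63.9 CPM in saline replicate 2 and 0.471 to 3.98 CPM in the other libraries. In the list of choroid plexus and ciliated epithelium 3 of 10 were higher (miR-200a-3p, miR-200b-3p and miR-429-3p) and 1 lower (miR-204-5p). The groups overlapped for each of the 3 higher ones. Morphine replicate 1 stood far above all other libraries for them, with 123, 74.8 and 23.5 CPM. The neuronal list summed to between 72946 and 116401 CPM in a library, and the 9 members to between 5784 and 19006 CPM. Both sums are of whole NAc tissue, and which cells the members came from was not measured.

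The miRNAs most like a member were found by Pearson's correlation of log2(CPM + 1) over the 6 libraries, among 399 other miRNAs with a mean of at least 10 CPM. For miR-199a-3p these were miR-451a (0.97), an erythroid miRNA, miR-30c-5p (0.97), miR-493-5p (0.95), miR-7a-1-3p (0.95) and miR-329-5p (0.94). For miR-143-3p they were miR-154-5p (0.94), miR-300-5p (0.92), miR-138-5p (0.91), miR-872-3p (0.91) and miR-181c-3p (0.91). Among the 9 members, 32 of 36 pairs had a correlation above 0, with a median of 0.57. The lowest was -0.39, between miR-143-3p and miR-214-3p, and that between miR-143-3p and miR-199a-3p was 0.09. These values share libraries, depth and group differences and are given as a description.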

How the data were processed

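Small RNA libraries were made from 3 μg of total RNA. The authors removed low-quality reads and reads shorter than 15 nt or longer than 35 nt, filtered other RNA classes with Bowtie and matched the rest to miRBase. They deposited raw read counts per mature miRNA, which were used here. The authors also deposited TPM values, which are each count scaled to its library total and entered no test. The genome build and miRBase release are not given in the sources used here.

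Counts were scaled with TMM and tested with edgeR 4.0.16 in R 4.3.3 (quasi-likelihood test, 6 libraries without a covariate, every miRNA with any count). Standard errors came from the fitted model. Arm ratios, log2 of (3p count + 0.5) over (5p count + 0.5), were tested with limma 3.58.1. DESeq2 1.42.0 was an alternative. The fits were tested on simulated data. Named miRNAs are the members, the list members with the smallest p in each direction and the 5 miRNAs most like 2 members. Members and lists were chosen with earlier results of these data known. Same-numbered libraries had deviations correlating at -0.23, -0.28 and 0.14, so replicate numbers were not taken as pairs.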

Additional observations from a re-analysis of the deposited data

How the results depend on the processing

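The study's criteria called 2 members with all libraries. Only 1 was called, miR-143-5p being lost, with DESeq2 (17.5% of all miRNAs met the criteria), edgeR's exact test (17.5%) or filterByExpr (31.3%). The same held for a minimum of 10 counts in total (25.7%), 1 row of each set with equal counts (21.1%) or the replicate block (13.1%). With filterByExpr, 7 of the 9 members were tested. The replicate block gave 5 called arm ratios in place of 34, and the adjusted p of miR-143 was then 0.0856 by limma. Leaving out 1 library gave 1 to 7 members by the criteria, 0 to 5 with an adjusted p under 0.05, 2 to 4 without overlap (fewer libraries overlap less by construction) and 4 to 98 called arm ratios. Over all miRNAs, 13.3% (without morphine replicate 1) to 37.0% (without saline replicate 2) then met the criteria. The number of all miRNAs with an adjusted p under 0.05 was 0 and 386 in these 2 settings by edgeR's quasi-likelihood test. An adjusted p under 0.05 was reached by 1 member with DESeq2, with miRBase names only and without the 10 most abundant miRNAs. Of all miRNAs tested, 156 of 1334, 110 of 1281 and 86 of 1354 reached it in these settings. Requiring only 1 count in each arm in total gave 22 called arm ratios of 430. The log2 fold change of miR-143-3p ranged from -0.88 to 0.086 (without morphine replicate 1 and saline replicate 2), that of miR-199b-5p from -0.66 to 1.62 and that of miR-214-5p from -0.66 to 2.02 (both without morphine replicate 1 and saline replicate 2). Leaving out 1 library moved the log2 difference of miR-143-3p to miR-145a-5p between -0.35 and 0.87 (-0.35 without saline replicate 1, -0.09 without saline replicate 3). It moved that of miR-199a-3p to miR-214-3p between -0.49 and 0.94 (-0.49 and -0.20 without saline replicates 1 and 3, -0.055 without morphine replicate 1). The ratios of miR-143-3p to miR-199a-3p and to miR-126a-3p kept their direction in all 8 alternatives each. For leaving out 1 library this was fixed in advance, since the groups of these ratios do not overlap. The replicate block leaves their difference unchanged by construction. Where no cause is given, the cause was not tested. Of 180 log2 fold changes and arm ratio differences under alternatives, 155 kept direction and side of the threshold, 14 lost a call, 8 gained one and 3 changed sign. A correction for GC content was not run, since sequences were used for 4 of the 9 members (44.4%). Few counts of miR-199b-5p and both arms of miR-214 limit what can be seen for them.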
